A study of Mus musculus with 6 samples.

Results

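The SR proteins and the heterogeneous nuclear ribonucleoproteins (hnRNPs) were followed as the rows of the deposited mRNA table whose symbol is Srsf followed by a number or begins with Hnrnp. The rule uses names and no measured value. It found 31 genes, 11 Srsf and 20 Hnrnp, among 21912 symbols, and 114 transcripts among 50687. RNA of mouse macrophages was read from 6 libraries. Of these, 3 are titled control macrophage cells (here control 1 to 3) and 3 are titled macrophage cells, numbered M1 to M3 (here M 1 to 3). The series is about macrophages given oxidised low-density lipoprotein (ox-LDL), the particle whose uptake makes foam cells, but M is not spelled out. It was read as the ox-LDL group because the other libraries alone are called control. The extraction text describes every library, controls too, as ox-LDL induced, so this reading is uncertain. Strain, age, source of the cells, dose and time are unstated in the labels, which also do not say that replicates were separate cultures. The p-values therefore cover only the variation among these 6 libraries, possibly technical.

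SR proteins bind exonic sequences in pre-mRNA through RNA recognition motifs and recruit the spliceosome through a tail rich in arginine and serine, which kinases phosphorylate. HnRNPs coat nascent transcripts, often oppose SR proteins at splice sites, and also act in export, stability and translation of mRNA. Many genes of both families adjust their own protein level by splicing in exons that send the transcript to nonsense-mediated decay. All 50687 rows of the table carry the gene type protein_coding, and transcripts known to be decay targets were not set apart in it. Values are FPKM, fragments per kilobase of transcript, scaled to the mapped fragments of the library, so levels can be compared between genes.

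No sequence of the proteins or transcripts was used here, but RefSeq promoter windows (250 bases before to 50 after a start, build GRCm38.p6) matched 29 of the 31 genes, in 41 windows; Hnrnpll and Hnrnpul2 had no match. Searched on both strands were CCAAT (the core bound by NF-Y), CCGGAAG (an ETS-type core), CACGTG (an E-box, the core bound by MYC with MAX) and TATAAA (the TATA box core). CCAAT stood in 21 of the 41 windows (51.2%) against 37.4% of all 32851 windows in the table, CCGGAAG in 10 (24.4% against 8.86%), CACGTG in 5 (12.2% against 7.15%) and TATAAA in 4 (9.76% against 13.6%). Windows of 1 gene can overlap, so these are descriptions. Shown are both listed start windows of Srsf11, the member whose transcripts moved in opposite directions, and those of Hnrnpul1 and Srsf3, which had the smallest standard errors among the lower sums. Capitals mark a match to any of the searched cores on either strand.
Srsf11, chr3:158036557-158036856, minus strand: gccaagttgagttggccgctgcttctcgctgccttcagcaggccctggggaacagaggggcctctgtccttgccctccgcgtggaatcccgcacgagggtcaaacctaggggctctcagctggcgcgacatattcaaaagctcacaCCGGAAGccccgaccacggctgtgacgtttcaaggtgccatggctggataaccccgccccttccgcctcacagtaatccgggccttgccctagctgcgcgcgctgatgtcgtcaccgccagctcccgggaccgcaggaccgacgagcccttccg
Srsf11, chr3:158031699-158031998, minus strand: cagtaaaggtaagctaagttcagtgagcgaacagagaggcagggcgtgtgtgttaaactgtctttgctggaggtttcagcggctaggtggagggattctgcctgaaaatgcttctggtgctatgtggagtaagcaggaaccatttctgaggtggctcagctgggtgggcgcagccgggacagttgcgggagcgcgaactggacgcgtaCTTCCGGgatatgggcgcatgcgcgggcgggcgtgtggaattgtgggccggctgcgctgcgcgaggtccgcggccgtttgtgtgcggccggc
Hnrnpul1, chr7:25754710-25755009, minus strand: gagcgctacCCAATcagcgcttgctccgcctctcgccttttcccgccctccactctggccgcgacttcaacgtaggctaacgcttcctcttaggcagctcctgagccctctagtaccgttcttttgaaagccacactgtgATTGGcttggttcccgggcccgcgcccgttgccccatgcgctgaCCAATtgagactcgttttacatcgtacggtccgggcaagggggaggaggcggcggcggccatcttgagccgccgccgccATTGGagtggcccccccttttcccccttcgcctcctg
Srsf3, chr17:29032410-29032709, plus strand: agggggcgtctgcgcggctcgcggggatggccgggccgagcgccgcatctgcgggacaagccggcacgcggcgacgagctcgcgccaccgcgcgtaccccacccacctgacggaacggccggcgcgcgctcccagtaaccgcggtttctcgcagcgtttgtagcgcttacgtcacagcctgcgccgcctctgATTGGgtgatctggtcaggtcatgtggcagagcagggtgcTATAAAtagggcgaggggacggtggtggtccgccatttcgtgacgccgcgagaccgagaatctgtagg
The Srsf11 windows lie 4858 bases apart and each holds CCGGAAG on 1 strand. Hnrnpul1 has 4 matches to CCAAT, and Srsf3 has 1, followed by a TATAAA. The sources used here do not say which deposited transcript begins in which window.

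Summed FPKM per library lay between 375467 and 390581, and 10324 to 10376 genes reached 1 FPKM in a library. The number of reads is unknown. The macrophage genes Lyz2, Cd14, Csf1r and Cd68 averaged 5340, 441, 499 and 330 FPKM, and 8 of the 9 listed macrophage markers were tested, with 5 higher in M and 0 lower. Of all genes tested, 21.2% were higher and 21.9% lower. Csf1r, Cd68 and Spi1 were not called. The efferocytosis receptor Mertk was at 0.128 FPKM. The 9 macrophage markers summed to 5847 to 6267 FPKM in control and 7577 to 7865 in M. Most of that sum was Lyz2, which averaged 4610 FPKM in control and 6069 in M. All 4 T cell and all 4 epithelial markers were listed at 0 in every library. The 4 B cell, 4 fibroblast and 4 endothelial markers each summed to at most 0.273 FPKM in any library; Ms4a1 was listed at 0. The 5 dendritic cell markers summed to 2.56 to 3.44 FPKM in control and 1.59 to 2.05 in M, with Cd209a at 0, and the 4 neutrophil markers to 6.61 to 7.81 and 8.25 to 9.28, with S100a9 and Ly6g at 0. Their part in the results was not tested. In bulk RNA, fewer cells of a type and less RNA per cell cannot be told apart.

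Splicing factor gene sums were lower in M, by small amounts. Summing transcripts per symbol, 30 of the 31 genes averaged at least 1 FPKM and were tested, at mean levels from 13.5 FPKM (Hnrnpa3) to 348 (Hnrnpa1). Srsf12 was listed at 0 in all 6 libraries for both its transcripts. Of the 30, 17 were lower in M, 1 was higher (Hnrnpll) and 12 were not called (limma on log2(FPKM + 1), adjusted p under 0.05 over all 10390 genes tested). Over all genes, 43.1% were called, 21.9% lower and 21.2% higher. Among the 3927 genes averaging at least 20 FPKM, a level that most members exceed, 23.4% were lower and 26.5% higher. By family, 6 of 10 Srsf sums were lower and 0 higher, and 11 of 20 Hnrnp sums were lower and 1 higher. The median log2 fold change (M minus control) was -0.14 for Srsf, -0.18 for Hnrnp and -0.01 for all genes tested. The largest fall among the called sums was to 75.7% of control (Hnrnpul1).

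**Figure D1:**
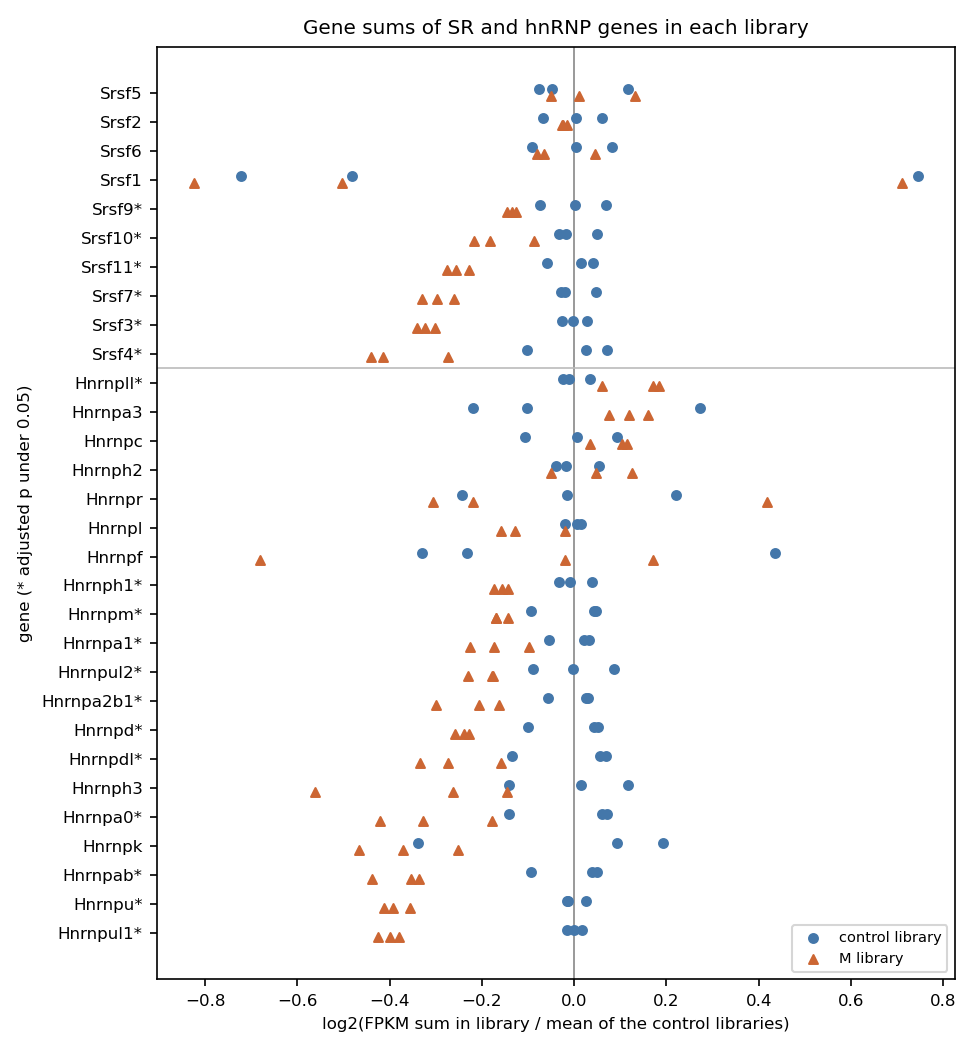
Gene sums of the 30 tested SR (above the grey line) and hnRNP genes, as log2 of each library's FPKM over the mean of the 3 control libraries; circles are control libraries, triangles M libraries, and an asterisk marks an adjusted p under 0.05. In 19 of the 30 all M libraries lie to the left of all control libraries, in 1 (Hnrnpll) to the right; Srsf1, Hnrnpf and Hnrnpr spread widely within both groups.

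All 11 Srsf genes together summed to 624 to 636 FPKM in the control libraries and 557 to 604 in M, and all 20 Hnrnp genes to 2123 to 2283 and 1795 to 1994. Neither pair of ranges overlaps. The members made up 0.723% to 0.746% of all mRNA FPKM in control and 0.627% to 0.676% in M. The groups did not overlap in 19 member sums lower in M and 1 higher, where 28.1% of all genes tested were lower without overlap and 27.6% higher. Leaving out M 3, the library with the lowest member share, took the count of lower members from 17 to 10, and the stricter adjusted p under 0.01 took it to 9. Across 18 alternative settings, 6 of the 18 called sums were called every time: Srsf3, Srsf4, Srsf7, Srsf11, Hnrnpab and Hnrnpu. Srsf3, Srsf4, Srsf7 and Hnrnpu are listed with 1 transcript, so settings that choose among transcripts could change only the fit, not their FPKM. Summing by gene ID likewise could not change the FPKM of any member.

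Among the SR proteins, Srsf3 (ENSMUSG00000071172), the smallest of the family and an adaptor for mRNA export, was at 87.9, 89.8 and 86.6 FPKM in control 1 to 3 and at 69.6, 71.4 and 70.4 in M 1 to 3. The groups lie well apart, and the mean went from 88.1 ± 1.63 to 70.5 ± 0.922 (SD, n = 3), a log2 fold change of -0.32 ± 0.0339 SE (limma adjusted p = 2.22e-04). Its closest relative Srsf7 (ENSMUSG00000024097), which carries a zinc knuckle, was at 32.4, 31.0 and 30.8 in control and 25.6, 26.2 and 25.0 in M (-0.29 ± 0.0408, adjusted p = 9.71e-04). Both genes, and Srsf4, are listed with a single transcript, so sum and transcript are the same measurement. The limma fit over transcripts differs, and there Srsf4 had an adjusted p of 0.0182, up to 0.0666 with a library left out. Srsf4 (ENSMUSG00000028911), an SR protein with a long arginine-serine tail, fell most of the family, from 25.3, 22.4 and 24.4 to 19.9, 17.7 and 18.02 FPKM (-0.36 ± 0.0623, adjusted p = 0.00267).

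Srsf10, which represses splicing when it loses its phosphates in heat shock or mitosis, was at 50.04, 52.4 and 49.5 FPKM in control and 44.6, 47.7 and 43.6 in M (-0.16 ± 0.0460, adjusted p = 0.0256). Srsf9 was at 66.7, 70.3 and 73.6 and at 64.0, 64.4 and 63.5 (-0.13 ± 0.0429, 0.0395). Neither pair of groups overlaps, but the gaps are small. The Srsf10 call was lost without control 1, control 2, M 1 or M 3 (adjusted p up to 0.0832) and that of Srsf9 without control 2, control 3 or any M library (up to 0.115). Both calls were also lost with equal library totals (adjusted p = 0.0684 for the gene sum Srsf10 and 0.101 for the gene sum Srsf9) and with the most abundant transcript alone, and that of Srsf9 with no filter (0.0559) and with median-of-ratios scaling (0.0602).

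The relatives of Srsf4 in sequence, Srsf5 and Srsf6, were not called. Srsf5 was at 107, 93.9 and 95.7 FPKM in control and 108, 99.7 and 95.7 in M (log2 fold change 0.03 ± 0.0656, adjusted p = 0.718). Srsf6 was at 77.01, 81.3 and 72.1 and at 72.6, 79.3 and 73.4 (-0.03 ± 0.0551, 0.672). In both genes the M sums lie within or beside the control sums. The main Srsf5 transcript, ENSMUST00000110356, was at 53.6, 52.8 and 53.9 FPKM in control and 64.6, 56.2 and 62.2 in M, without overlap. It was not called (0.18 ± 0.0553, limma adjusted p = 0.079), and the other tested Srsf5 transcripts had negative log2 fold changes, not called either. The difference between Srsf4 and these relatives was not tested. Srsf2 (SC35), a component of nuclear speckles and the most abundant SR gene here, was at 118, 123 and 113 FPKM in control and 117, 116 and 116 in M (-0.02 ± 0.0415, 0.704), so its groups overlap as well.

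Srsf1, the founding member that favours proximal splice sites, could not be compared at this spread. It was listed at 20.5, 17.4 and 48.1 FPKM in control and 20.2, 47.0 and 16.2 in M. Control 3 and M 2 stand far above the other libraries of their groups, and the within-group coefficient of variation (CV, the SD as a percentage of the mean) was 59.6%, the largest among the members with several transcripts. The log2 fold change was -0.05 ± 0.586 SE (adjusted p = 0.954). It was 0.38 without control 3 and 0.25 without M 3, with an adjusted p of at least 0.516 whichever library was left out.

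The lowest fold changes of all members were in the U subfamily. Hnrnpul1 (ENSMUSG00000040725), a relative of hnRNP U known for binding an adenoviral protein, was at 80.4, 81.2 and 82.2 FPKM in control and 62.4, 60.5 and 61.6 in M. The mean went from 81.3 ± 0.946 to 61.5 ± 0.972 FPKM (-0.40 ± 0.0333, adjusted p = 6.65e-05). Hnrnpu (ENSMUSG00000039630), scaffold attachment factor A, which binds nuclear RNA and chromatin, was at 102, 102 and 104 and at 80.1, 78.1 and 76.99 (-0.38 ± 0.0348, 9.71e-05). The spread of both within a group is small beside the gap. Hnrnpul2 was at 29.7, 28.0 and 31.6 and at 26.3, 26.3 and 25.4 (-0.19 ± 0.0509, 0.020), and this call was lost without control 1, control 3 or M 3 (adjusted p up to 0.0642).

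In the A/B and D subfamilies, whose proteins carry paired RNA recognition motifs and a glycine-rich tail, 6 of 7 sums fell, where 21.9% of all genes did; 3 of the 6 calls were lost under several alternatives. Hnrnpab (ENSMUSG00000020358), also known as CArG box-binding factor, was at 181, 163 and 179 FPKM in control and 136, 138 and 129 in M (-0.37 ± 0.0521, adjusted p = 8.82e-04). Hnrnpa1 (ENSMUSG00000046434), the exon-skipping antagonist of Srsf1 and the most abundant member, was at 377, 355 and 374 and at 327, 344 and 315 (-0.16 ± 0.0495, 0.0290). Hnrnpa2b1, the next in abundance, was at 320, 302 and 319 and at 280, 272 and 255 (-0.22 ± 0.0503, 0.00928). All M libraries of these genes lie below all control libraries.

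Hnrnpa0, which binds AU-rich elements of cytokine mRNAs in stimulated macrophages, was at 79.8, 69.4 and 80.4 FPKM in control and 67.6, 60.9 and 57.1 in M (-0.30 ± 0.0782, adjusted p = 0.0173). Hnrnpd (AUF1), which promotes decay of AU-rich mRNAs, was at 17.8, 16.03 and 17.7 and at 14.7, 14.4 and 14.6 (-0.23 ± 0.0516, 0.00940), and Hnrnpdl fell from 42.7 ± 3.32 to 35.8 ± 2.21 FPKM (-0.25 ± 0.0675, 0.0204). The calls of Hnrnpa0, Hnrnpa1 and Hnrnpdl did not hold whenever a library was left out. Hnrnpa0 lost its call without control 1, control 3, M 2 or M 3 (adjusted p up to 0.0602), Hnrnpa1 without control 1, control 3, M 1 or M 3 (up to 0.0963), and Hnrnpdl without control 1, control 2, M 2 or M 3 (up to 0.0710). With quantile normalization the log2 fold changes of Hnrnpa1 and Hnrnpa2b1 were -0.02 and -0.07 and neither was called. Hnrnpa1 and several other members have processed pseudogenes in the mouse genome, and the sources used here do not say how shared reads were assigned, so these values are uncertain. Hnrnpa3 was the exception in direction, at 15.6, 12.1 and 11.1 FPKM in control and 14.05, 13.6 and 14.5 in M (0.12 ± 0.112, adjusted p = 0.413). Without control 1 its log2 fold change was 0.26 (adjusted p = 0.0156).

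The G-tract binding F/H subfamily was mixed. Hnrnph1 was at 133, 127 and 129 FPKM in control and 115, 118 and 116 in M (-0.16 ± 0.0363, adjusted p = 0.0101), without overlap. The call of the gene sum Hnrnph1 was lost when transcripts at 0 in any library were left out (adjusted p = 0.272). That setting removed ENSMUST00000109142, which was at 0 only in M 2 and averaged 17.3 FPKM. The Hnrnph1 call was also lost with its most abundant transcript alone (0.649). Its X-linked relative Hnrnph2 was at 39.6, 40.2 and 42.3 and at 39.3, 42.0 and 44.4 (0.04 ± 0.0526, 0.569), with overlap. Hnrnph3 went from 17.6 ± 1.57 to 14.2 ± 2.04 FPKM (-0.30 ± 0.108, 0.0612). It was called without control 2 (0.0475) or M 1 (0.0316). Hnrnpf was at 331, 195 and 208 FPKM in control and 275, 241 and 153 in M, with a CV of 29.6%, and was not called (-0.13 ± 0.317, 0.765). Its direction turned without control 1 (0.10) or M 3 (0.12).

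Of the remaining hnRNPs, Hnrnpm, which delays splicing of Il6 in activated mouse macrophages, was at 83.2, 75.5 and 83.1 FPKM in control and 73.0, 71.6 and 71.7 in M (-0.16 ± 0.0460, adjusted p = 0.0263). The groups do not overlap, and the call was lost without control 1, control 3, M 2 or M 3 (up to 0.0870). Hnrnpk, a KH-domain protein that binds C-rich sequence, was at 154, 223 and 208 and at 151, 164 and 141 (-0.34 ± 0.144, 0.102). Control 1 sits among the M values, and without it the log2 fold change was -0.50 (adjusted p = 0.00242). Hnrnpl, which binds CA repeats, was at 142, 139 and 142 and at 139, 126 and 129 (-0.10 ± 0.0451, 0.106), and was called without M 1 (0.0272). Hnrnpc, which binds uridine tracts and keeps U2AF off cryptic sites, was at 78.3, 84.7 and 90.0 and at 90.6, 86.3 and 91.3 (0.08 ± 0.0549, 0.247). Hnrnpr ranged from 19.2 to 31.7 FPKM over both groups and was not called (-0.02 ± 0.221, 0.948).

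Hnrnpll (ENSMUSG00000024095), the paralogue of Hnrnpl known for switching CD45 exons in activated T cells, was the only member called higher. It was at 27.6, 26.5 and 26.8 FPKM in control and 28.1, 30.7 and 30.4 in M, so the groups are separated by a narrow gap. The log2 fold change was 0.13 ± 0.0458 SE with an adjusted p of 0.0465. The call was lost without any control library, M 2 or M 3 (adjusted p up to 0.147), with no filter and with quantile normalization. The call was also lost with the most abundant Hnrnpll transcript alone and when transcripts at 0 in any library were left out. Neither Hnrnpll transcript was at 0 in a library, so in that last setting only the fit changed.

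Single transcripts gave fewer calls than the sums. Of the 114 member transcripts, 83 averaged at least 1 FPKM and were tested, 13 were listed at 0 in every library and 6 at 0 in some. Of the 83, 12 were lower, 1 was higher and 70 were not called, where 9.56% of all 16851 transcripts tested were lower and 9.18% higher. Groups did not overlap in 29 member transcripts lower in M, where the share over all transcripts was 20%. Nor did they overlap in 3 higher in M, for which no share over all transcripts was counted. The median log2 fold change of the tested member transcripts was -0.18. In 10 of the 30 genes the sum was called and 0 transcripts were called, which held for 16.2% of all genes tested. These 10 include Hnrnpa0 and Hnrnpul2, each listed with 1 transcript, so there the fits differ and not the values. Their limma adjusted p was 0.017 and 0.020 among genes and 0.072 and 0.060 among transcripts. The opposite, a called transcript under a sum that was not called, was found in 2 members (Hnrnpf and Hnrnpr), against 1.38% of all genes. In 8 members both were called and in 10 neither was. Transcripts called in both directions were found in 1 member, Srsf11, against 0.260% of all genes. Only a gene with several tested transcripts can show this, which 23 of the 30 members and 3825 of the 10390 genes had. The shares over all genes, the 1.38% too, are therefore not matched for number of transcripts.

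**Figure D2:**
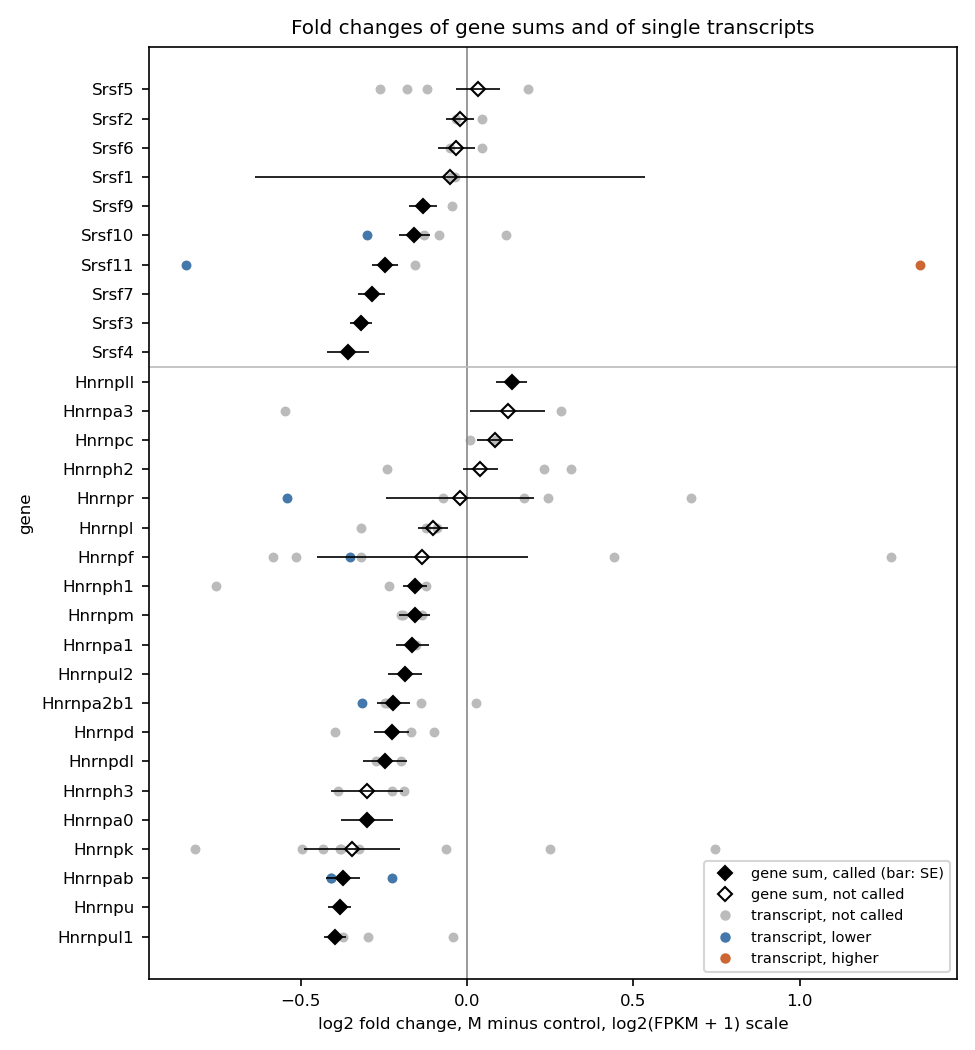
Log2 fold change (M minus control, log2(FPKM + 1) scale) of each gene sum (diamonds, bar 1 SE, filled when called) and of its tested transcripts (dots) for the 30 tested genes. Of the 83 transcripts 12 are called lower and 1 higher, and the Srsf11 transcripts at -0.85 and 1.36 lie far to either side of its sum at -0.25.

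Srsf11 (ENSMUSG00000055436), an SR-related protein that contacts the factors at the 3′ splice site, had the clearest change of makeup. Its sum was at 40.0, 42.9 and 42.2 FPKM in control and 34.9, 34.5 and 35.6 in M (-0.25 ± 0.0403, adjusted p = 0.00195). Transcript ENSMUST00000072875 was at 33.6, 33.8 and 34.0 FPKM in control and 17.7, 18.9 and 18.6 in M, which is 54.4% of control (-0.85 ± 0.0343, adjusted p = 2.45e-04). Transcript ENSMUST00000121326 was at 4.34, 5.88 and 4.997 in control and 15.5, 13.8 and 14.3 in M, which is 287% of control (1.36 ± 0.107, adjusted p = 0.00124). All 3 M libraries moved the same way for each, and neither transcript's groups overlap.

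As a share of the Srsf11 sum, ENSMUST00000072875 went from 81.2% ± 2.66 to 52.5% ± 2.07 (SD, n = 3) and ENSMUST00000121326 from 12.1% ± 1.46 to 41.6% ± 2.39. The other tested transcript, ENSMUST00000069025, held 2.91% in control and 2.82% in M. Set against the rest of the gene, ENSMUST00000121326 changed by 2.17 ± 0.183 SE on the log2 scale (limma adjusted p = 0.0292), and ENSMUST00000072875 by -1.84 ± 0.185 (0.0542). That was 1 call among 76 member transcripts tested in 23 genes, where 18 of 10722 transcripts were called overall (0.168%). The size was 2.10 to 2.26 whichever library was left out, but the adjusted p then lay between 0.0525 (without M 1) and 0.119 (without control 3), so this call needs all 6 libraries. The calls of the transcripts alone held under every alternative tried. The tests of both transcripts share the same libraries and, through the rest of the gene, each other's values. The exons that distinguish these transcripts were not analysed here.

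**Figure D3:**
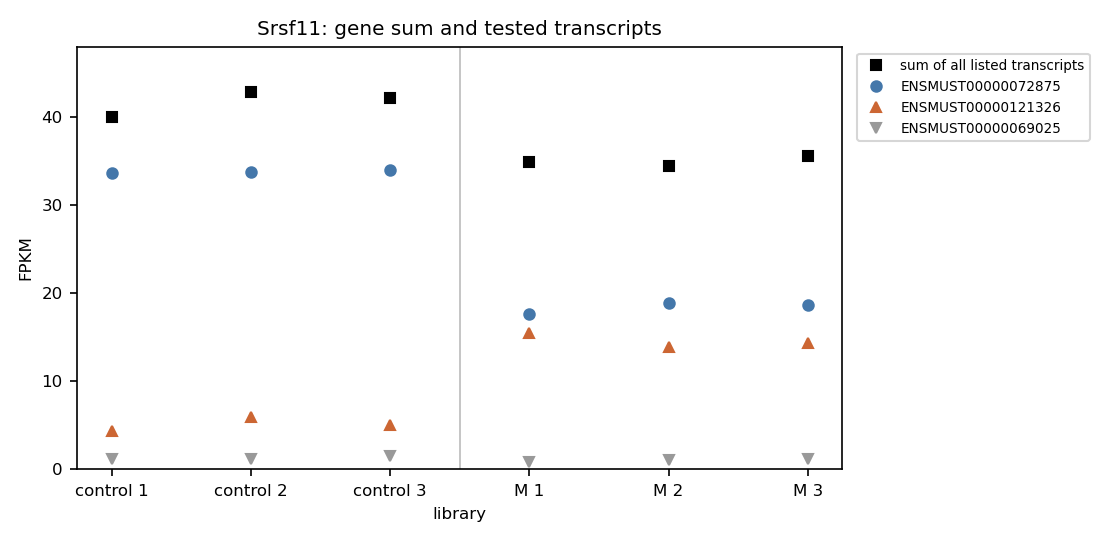
FPKM of Srsf11 in each library, for the sum of all 5 listed transcripts (squares) and the 3 tested transcripts. The circles fall from about 34 FPKM in control to 17.7 to 18.9 in M while the triangles rise from 4.34 to 5.88 to 13.8 to 15.5, and the sum falls less than the circles.

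Called transcripts under a called sum, in the same direction, were found in other genes with several transcripts. All 3 transcripts of Hnrnpab were called lower, ENSMUST00000109103 (-0.41, adjusted p = 0.0381), ENSMUST00000074669 (-0.41, 0.00296) and ENSMUST00000101249 (-0.22, 0.0159). The call of the first was lost without any library except control 2 (adjusted p up to 0.112), and that of the last without control 1, control 3 or M 2 (up to 0.0639). In Hnrnpa2b1, 1 of 5 tested transcripts was called, ENSMUST00000090002, at 34.5, 33.9 and 33.8 FPKM in control and 27.7, 27.8 and 26.1 in M (-0.32 ± 0.0349, 0.00353). In Srsf10, 1 of 4 was called, ENSMUST00000126641, at 15.5, 17.1 and 16.1 and at 13.4, 12.7 and 12.8 (-0.30 ± 0.0494, 0.0128), a call lost without M 2 (0.0528) or M 3 (0.0504). The other tested transcripts of Hnrnpa2b1 and Srsf10 were not called, and 1 of each had a positive log2 fold change, ENSMUST00000069949 at 0.03 and ENSMUST00000102544 at 0.12. None of the called transcripts of these genes was called against the rest of its gene.

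In Hnrnpul1 the transcripts spread far more than their sum, whose CV was the smallest of all member sums. Transcript ENSMUST00000043765 was listed at 25.8, 21.3 and 71.6 FPKM in control and 19.7, 20.1 and 52.2 in M, and ENSMUST00000206832 at 51.3, 57.3 and 10.1 and at 39.8, 37.3 and 8.96. Libraries control 3 and M 3 are high in the first transcript and low in the second. The CVs were 65.8% and 62.4% for the transcripts and 1.39% for their sum. Neither transcript was called (log2 fold changes -0.30 and -0.37, adjusted p = 0.782 and 0.815), although the sum had the smallest p of all members. Taking the most abundant transcript in place of the sum therefore lost the Hnrnpul1 call. Over all members that setting left 10 called lower instead of 17, a net count of calls lost and gained. Srsf9 and Hnrnpa1 also lost their calls with it, although their main transcripts held 97.8% and 95.0% of the sum in control.

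A like exchange was seen in Hnrnph1, whose transcript ENSMUST00000109142 was at 27.6, 19.6 and 4.82 FPKM in control and 25.3, 0 and 26.3 in M. Its CV was 77.3%, against 1.95% for the Hnrnph1 sum. In Hnrnpf the sum varied as well. Transcript ENSMUST00000179478 was at 176, 25.3 and 29.8 FPKM in control and 140, 113 and 21.4 in M, high in control 1, M 1 and M 2. The main Hnrnpf transcript, ENSMUST00000035493, was at 132, 133 and 143 in control and 112, 106 and 102 in M, without overlap (-0.35 ± 0.0508, adjusted p = 0.00849). In Hnrnpr, ENSMUST00000148843 was at 7.27, 8.14 and 8.18 and at 5.48, 4.13 and 5.77 (-0.54 ± 0.126, 0.0381), while ENSMUST00000131671 stood at 9.23 FPKM in M 2 and at 0.833 to 1.32 in the other libraries. The Hnrnpr call was lost without any library except M 2 (adjusted p up to 0.113). Srsf1 differed from these, since both its tested transcripts were high in the same libraries, ENSMUST00000139129 at 33.4 FPKM in control 3 and 34.3 in M 2 and ENSMUST00000079866 at 14.7 and 12.6.

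**Figure D4:**
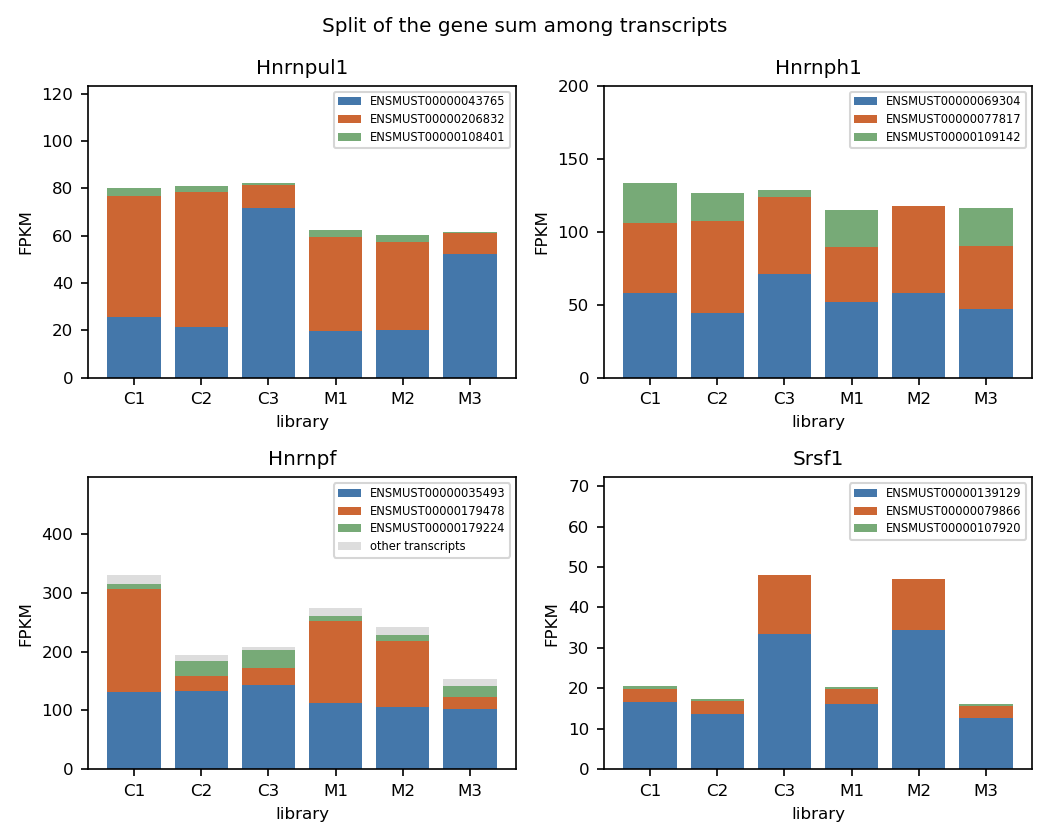
Stacked FPKM of the transcripts of Hnrnpul1, Hnrnph1, Hnrnpf and Srsf1 in each library (C, control; M, M), with the 3 most abundant transcripts in colour and the rest in grey. The Hnrnpul1 bars keep an even height within a group (80.4 to 82.2 and 60.5 to 62.4 FPKM) while their colours trade places in libraries C3 and M3; the Srsf1 bars are highest in C3 and M2.

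Over the 23 members with several tested transcripts, the median within-group CV was 4.65% for the sums and 16.6% for their 76 transcripts, and 59 of the 76 transcripts had a higher CV than their own sum. Over all 3825 genes with several tested transcripts the medians were 5.64% and 22.7%. By family, the transcript median was 10.3% for Srsf (19 transcripts) and 18.3% for Hnrnp (57), and the sum median 3.99% and 4.80%. Sum and transcripts are not independent, since the values of a gene's transcripts add up to its sum.

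**Figure D5:**
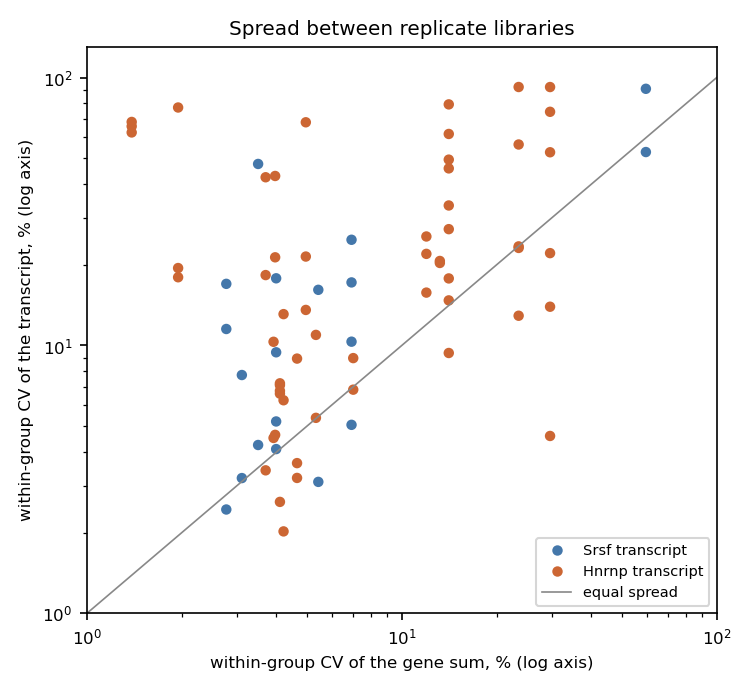
Within-group CV of each of the 76 tested transcripts of the 23 members with several, against the CV of its gene sum, both on log axes. Of the points, 59 lie above the line of equal spread, farthest for Hnrnpul1 (left, sum 1.39%).

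The 7 related lists of splicing genes held 143 genes in the table, 138 of them tested, with 42 lower and 7 higher, where 21.9% of all genes tested were lower and 21.2% higher. Of 35 other regulators of splice site choice, 14 were lower and 3 higher (median log2 fold change -0.11). The paraspeckle proteins Nono (109 ± 0.596 to 79.6 ± 1.87 FPKM, -0.45 ± 0.0345, adjusted p = 4.41e-05) and Sfpq (100.3 ± 2.09 to 76.0 ± 0.583, -0.40 ± 0.0339, 7.22e-05) and the hnRNP G gene Rbmx (-0.60 ± 0.0504, 6.56e-05) fell. Among 32 snRNP proteins 11 were lower and 0 higher (median -0.13), among them the Sm protein Snrpd1 (-0.47), Snrnp40 (-0.28) and Lsm6 (-0.41). Of 16 branch point and 3′ splice site factors 7 were lower and 0 higher (median -0.12), among them the SF3 subunits Sf3b2 (-0.39), Sf3a1 (-0.33) and Sf3a3 (-0.29). Of 22 SR-related proteins 5 were lower, a share near that of all genes, and 0 higher (median -0.08), with Acin1 (-0.27), Srek1 (-0.22) and Pnn (-0.34) named by smallest p.

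In the lists of SR protein kinases and importers and of arginine methyltransferases, the calls went both ways. Over all genes tested, 21.9% were lower and 21.2% higher. Of 11 SR protein kinases and importers, 1 was higher, the SR protein kinase Srpk2 (0.17 ± 0.0432, adjusted p = 0.0139), and 1 lower, the spliceosomal kinase Prpf4b (-0.20 ± 0.0453, 0.00857), with a list median of 0.08. Of 7 arginine methyltransferases, a family of which only some members modify the glycine-rich tails of hnRNPs, 3 were higher and 1 lower (median 0.03). Prmt1, the main enzyme of this kind, went from 5.08 ± 0.231 to 3.06 ± 0.520 FPKM (-0.59 ± 0.0969, 0.00196), while Prmt2 (0.44) and Prmt3 (0.25) rose. Of 15 genes for nonsense-mediated decay and the exon junction complex, 3 were lower, a share near that of all genes, and 0 higher (median -0.03). The 3 were the helicase Upf1 (-0.30 ± 0.0553, adjusted p = 0.00356), Upf3b (-0.26) and Upf3a (-0.24).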

How the data were processed

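Total RNA of 6 libraries was made into sequencing libraries with a TruSeq RNA kit, per the labels' protocols; the labels do not say whether it kept strand. The authors deposited FPKM per transcript for mRNA and, separately, for lncRNA (not used here). The submitters' processing notes name build mm9, with aligner, quantifier, annotation release and filters not given in the sources used here. FPKM hold no read counts, so depth in reads and counting intervals are unknown. For genes with 1 transcript, the most frequent ratio of values below 0.1 FPKM put relative depth at 0.878 to 1.03 of control 1, on only 10 to 22 transcripts per library. A value of 0 was read only as listed at 0.

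FPKM were summed per symbol. Genes, and separately transcripts, with a mean of at least 1 FPKM were fitted as log2(FPKM + 1) with limma 3.58.1 in R 4.3.3 (eBayes with trend and robust settings, 1 term for group and no covariate, two-sided, Benjamini-Hochberg over the whole table, called at an adjusted p under 0.05). Such fold changes understate those of low genes. The same model was fitted to log2 of a transcript over the other transcripts of its symbol, each plus 1. The fits were tried on simulated data in which every transcript varied independently, so exchange between transcripts of the same gene was not covered. An exact permutation test of 3 against 3 libraries cannot go below p = 0.1 and was not used. Named with every library were the 5 highest and 5 lowest called sums and the 6 most abundant; other members and transcripts are given where they bear on these. Related lists name up to 3 called genes by smallest adjusted p. The members and lists were chosen with earlier results of these data known. Alternatives covered pseudocount, filter, scaling, threshold, replicate block, leaving out each library, summing and listed zeros. The setting for listed zeros left out every transcript at 0 in any library, also one well above 0 in the others.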

Additional observations from a re-analysis of the deposited data

How the results depend on the processing

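Under 18 alternatives to the sums, 0 of the 18 called members reversed, 6 kept their call throughout, 3 (Hnrnpa2b1, Hnrnpd, Hnrnpul1) lost it under 1 alternative and 9 under more. For members listed with 1 transcript, the alternatives on choice of transcript and listed zeros could change only the fit, not the values. The same holds for summing by gene ID in all members. Members lower (17) were 9 at an adjusted p under 0.01, 10 with the most abundant transcript and 10 to 16 without 1 library. Members higher (1) were 0 with no filter, quantile normalization, an adjusted p under 0.01 or transcripts at 0 in any library left out, and 0 to 1 without 1 library. Related genes lower (42) were 25 at an adjusted p under 0.01, 27 with the most abundant transcript and 29 to 42 without 1 library; those higher (7) were 4 at the stricter p and 5 to 7 without 1 library. Member transcripts lower (12) were 7 at the stricter p and 8 to 14 without 1 library; those higher (1) were 2 with no filter and 1 to 2 without 1 library. Sums called over 0 called transcripts (10) were 5 with quantile normalization, 3 at the stricter p and 4 to 8 without 1 library. Sums not called over a called transcript (2) were 1 at the stricter p and 1 to 4 without 1 library. Transcripts called against the rest of their gene (1) were 2 with a pseudocount of 5, no filter, a filter at 5 FPKM or quantile normalization, 0 at the stricter p and 0 without any 1 library. The cause was not tested.

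The replicate numbers are shared by the groups, but deviations of same-numbered libraries correlated at 0.0664, 0.0052 and -0.0347 over gene sums and 0.0177, 0.0253 and 0.0685 over transcripts. For transcripts, not for sums, each library correlated best with its own number. The numbers were not taken as pairs. With a replicate block, 16 members were lower and 0 higher. The gene sum Hnrnpa1 (adjusted p = 0.0654), the gene sum Srsf9 (0.0572) and the gene sum Hnrnpll (0.0857) lost their call and the gene sum Hnrnph3 (0.0070) gained one. With it, 8 member transcripts were lower, 0 sums that were not called had a called transcript, and 0 transcripts were called against the rest of their gene (18 over all genes without the block, 0 with it).

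Among the sums, directions turned in 7 that were not called and in 0 called ones. Leaving out 1 library moved Hnrnpf from -0.31 to 0.12 (0.10 without control 1), Hnrnph2 from -0.0014 to 0.085, Srsf1 from -0.49 to 0.38, Srsf2 from -0.054 to 0.0083, Srsf5 from -0.017 to 0.092, Srsf6 from -0.076 to 0.0093 and Hnrnpr from -0.24 to 0.11. Hnrnph2 was -0.0014 without M 3 and -0.24 with the most abundant transcript. The gene sum Hnrnpr was 0.00776 with equal library totals, 0.09 without control 1, 0.07 without M 1, 0.11 without M 3 and 0.24 with the most abundant transcript. Srsf1 was 0.09 and 0.25 without M 1 and M 3. Srsf2 was 0.0084 with equal library totals and 0.0083 without control 2. The gene sum Srsf5 was -0.018 with quantile normalization, -0.017 without M 1 and -0.00393 without control 2, and Srsf6 was 0.0093 without control 2. In Srsf11, the transcript against rest ENSMUST00000069025 was -0.023 with a pseudocount of 0.1.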
